A study of Mus musculus with 4 samples.

Results

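The comparison described here sets 1 microarray of miR-7 deficient mice against 1 microarray of wild type mice, both labelled as activated CD4+ T cells, out of 4 arrays in the series. Both were chosen by their labels, with earlier results of these data known. The miR-7 deficient sample and the wild type sample came from splenocytes of mice of the FVB/N background. Per the labels they are CD4+ T cells with high CD62L, a homing receptor of naive lymphocytes, stimulated in culture for 48 hours with antibodies to CD3 and CD28 and with interleukin-2. The other pair in the series, miR-7 deficient and wild type cells with high CD62L taken with magnetic beads, is labelled naive and is used below only for a few values set side by side. Each sample is described as representing 3 biological replicates, yet 1 array stands for each group. Differences are thus between 2 single arrays, without replicates or p-values. The labels do not say how the deficiency was made, and the growth and treatment fields of the labels describe a bacterial culture.

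MicroRNAs are short RNAs that guide the silencing machinery to messenger RNAs through a seed near their 5′ end, which lowers the amount or the translation of the messenger. miR-7 is abundant in neurons and in neuroendocrine cells, and its published targets include genes of signalling, of the cytoskeleton and of vesicle release. A T cell carries the CD3 chains of its receptor complex and the kinase Lck, while brain tissue holds neurons, myelin-forming oligodendrocytes, astrocytes, microglia, vessels and meninges, each with its own set of transcripts.

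The seed is the sequence that the deficiency concerns, so the mature 5′ arms are shown with bases 2 to 8 in capitals. RefSeq (GRCm38.p6) places miR-7a at 2 loci, Mir7-1 on chromosome 13 and Mir7-2 on chromosome 7, and miR-7b at Mir7b on chromosome 17.
mmu-miR-7a-5p: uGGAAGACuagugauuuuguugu
mmu-miR-7b-5p: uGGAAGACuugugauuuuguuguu
Both arms carry the same seed. No row of the array names these 3 loci, so neither array checks its genotype label by the microRNA itself.

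The labelled cell type was checked against markers. The floor is the intensity below which 95 percent of an array's rows for odorant, pheromone and taste receptor genes lie, and it was 610 on the miR-7 deficient array and 723 on the wild type array. Of 10 T cell markers, the miR-7 deficient array had 1 above its floor and the wild type array 2, whereas their naive counterparts had 7 and 6. Cd3d, a CD3 chain, read 246 in miR-7 deficient and 223 in wild type, below both floors. The summed intensity of the 10 T cell markers was 4080 and 5038 in the same order, against 23736 and 19437 on the naive arrays. Of 6 neuronal markers, 6 exceeded the floor in miR-7 deficient and 5 in wild type, and 0 did on either naive array. All 6 oligodendrocyte and all 6 astrocyte markers were above both floors. On each naive array 1 oligodendrocyte marker, Cnp, and 2 astrocyte markers, Aqp4 and Gja1, were above the floor. Aqp4 and Gja1 read higher there, Aqp4 at 2665 in miR-7 deficient and 3458 in wild type against 1316 and 1365 on the arrays labelled activated. The 4 hepatocyte markers, among them Alb, were below the floor on every array. These data go against the labelled cell type, so the pair is called the arrays labelled activated, and a direction below belongs to these 2 arrays and not to a verified cell state. An exchange of samples or files before deposit was not tested, and the genotype of each array, too, is known from its label alone.

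**Figure D1:**
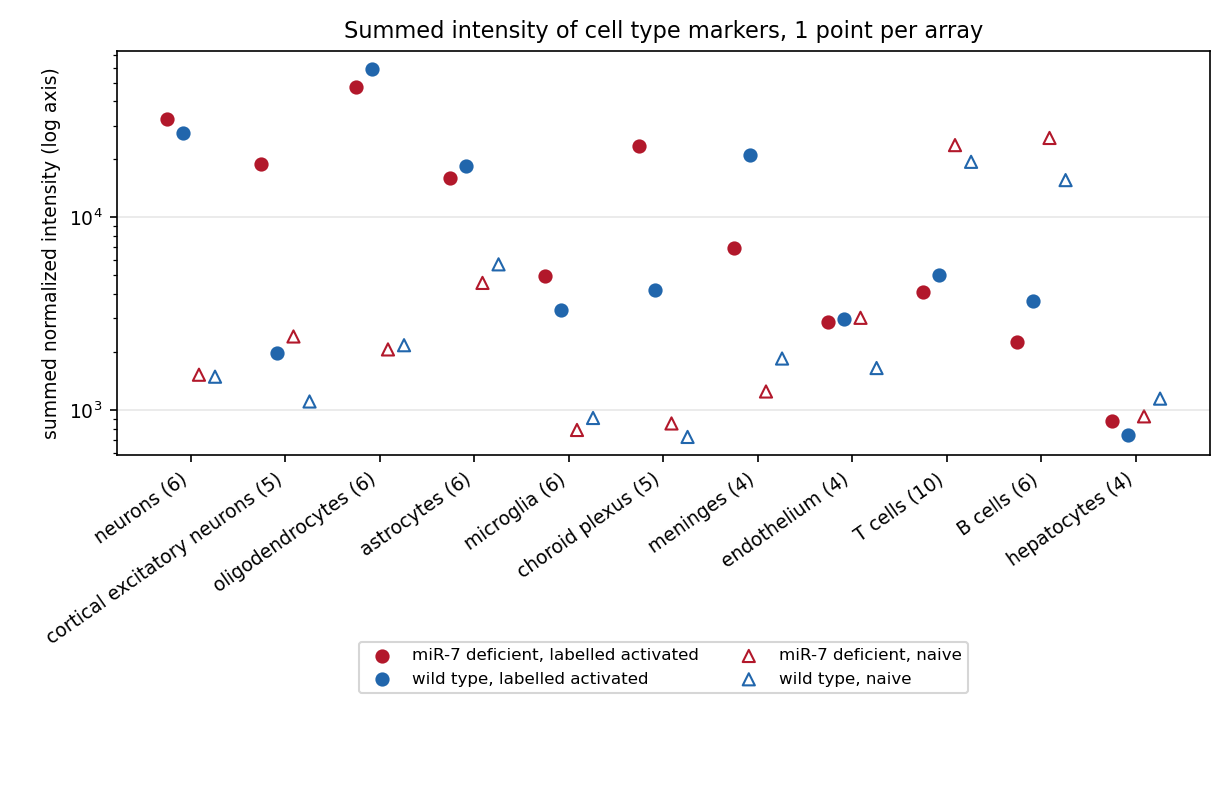
Summed normalized intensity (log axis) of the markers of each cell type, 1 point per array, with the number of markers measured in parentheses. Filled circles are the arrays labelled activated and open triangles the naive arrays. The T cell sums of both arrays labelled activated, 4080 for miR-7 deficient and 5038 for wild type, lie below both naive sums. The cortical excitatory neuron sum is 18974 for miR-7 deficient against 1986 for wild type. Slc17a7 alone gives 15853 of the first and 902 of the second, and the other cortical markers are below the wild type floor.

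The design asks how the messenger RNA profile of activated cells differs with and without miR-7. Since the markers go against that cell type, the values below compare the RNA of these 2 arrays and do not answer that question for T cells. Of 5686 genes above the floor on at least 1 of the 2 arrays, 126 were 2-fold or more higher in miR-7 deficient (2.22%) and 135 were 2-fold or more lower (2.37%), 4.59% in all. A value below a floor was set to that floor, so 67 of these 261 differences are lower bounds and 194 were measured on both sides. Of the 261, 48.3% were higher in miR-7 deficient, and 60.5% of the genes apart were higher once both arrays were centred on the median difference. Among the 4217 genes above both floors the log2 differences had an SD of 0.48. For 852 genes with several rows above both floors, rows of 1 gene differed with a pooled SD of 0.35, which is a spread between probe sets and not between animals. The median log2 difference of the 4889 genes that passed a filter on mean intensity was -0.05, and 45.6% of them were above 0. The filter asks that the mean log2 intensity of the 2 arrays reach the mean of both floors, so it does not use the difference, and the list medians below are over the members that passed it.

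Genes of glutamatergic neurons of the cortex were higher in miR-7 deficient. Of 51 measured members of the cortical excitatory list 31 were above a floor, of which 18 were 2-fold or more higher and 0 were 2-fold lower, against the 2.22% of all genes called higher. The median log2 difference over 28 members was 1.46, beside -0.05 over all genes, and 1.17 over all 51 with no filter, 46 of them above 0. The members include genes that earlier results had already named, and the median of the 19 others was 1.05, with 16 above 0 and 9 called higher. In bulk RNA of this kind, a change in the number of cells of a type and a change in the RNA per cell cannot be told apart.

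Slc17a7 encodes the vesicular glutamate transporter VGLUT1, which loads glutamate into synaptic vesicles of cortical and hippocampal neurons. It read 15853 in miR-7 deficient and 902 in wild type, a log2 difference of 4.13. The related transporters Slc17a6, which serves subcortical neurons, and Slc17a8 were below both floors, at 221 against 503 and at 182 against 119.6. Of these 3 transporters, Slc17a7 alone was above a floor. Both naive arrays were below the floor for Slc17a7, at 297 in miR-7 deficient and 99.9 in wild type.

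Other genes of the cortical list were higher as well. Rprm, named for its part in cell cycle arrest downstream of p53, read 6637 in miR-7 deficient against 646 in wild type, below the floor, and was at least 9.18-fold higher. Nptxr, the receptor of neuronal pentraxins that gather AMPA receptors at synapses, read 13991 in miR-7 deficient against 2624 in wild type (log2 2.41). Its partner Nptx1 read 2203 against 705 and Nptx2 read 662 against 540.5, both wild type values being below the floor. Ddn, dendrin of dendrites and postsynaptic sites, read 9097 against 2027 (log2 2.17). Hpca, the calcium sensor hippocalcin, read 9049.9 against 2123 (log2 2.09). Both arrays measured Ddn and Hpca above the floor. Enc1, an actin-binding protein of cortical neurons, read 15343 against 3953, and Olfm1, a secreted glycoprotein of neurons, read 6708 against 2302. Nell2, a secreted protein of neurons, read 6455 against 1624 and Ctxn1, cortexin, 5234 against 1223. The other row of Nell2, also above both floors, differed less at 1586 against 1143 (log2 0.47).

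The transcription factors of the list lay on both sides of 0. Zbtb18, a zinc finger repressor needed for cortical development, read 4429 in miR-7 deficient and 981 in wild type (log2 2.17). Lhx2, a patterning factor of the forebrain, read 4179.6 and 1823. Mef2c, which regulates activity-dependent genes, was at least 2.3-fold higher, with a wild type value of 492 below the floor. Neurod6 read 1399 against 463 and Neurod2 966 against 257. Both wild type values were below the floor, and neither bound reached 2-fold. Cux1, a factor of upper cortical layers, ran the other way at 931 against 1414 (log2 -0.60), as did Fxyd7, a regulator of the sodium pump, at 829.7 against 1128. Among the 28 members that passed the mean filter, the 3 below 0 were Cux1, Fxyd7 and Foxp2, a factor of deep layers (-0.05).

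The gene with the widest difference and a leading factor were looked at in their promoters, 250 bases before and 50 after the start as given by RefSeq (GRCm38.p6), since genes that move together may be compared there. Slc17a7 is at chr7:45163671-45163970 on the plus strand and Zbtb18 at chr1:177442101-177442400 on the plus strand, and the capitals mark CATCTG, the E-box used by neuronal basic helix-loop-helix factors.
Slc17a7: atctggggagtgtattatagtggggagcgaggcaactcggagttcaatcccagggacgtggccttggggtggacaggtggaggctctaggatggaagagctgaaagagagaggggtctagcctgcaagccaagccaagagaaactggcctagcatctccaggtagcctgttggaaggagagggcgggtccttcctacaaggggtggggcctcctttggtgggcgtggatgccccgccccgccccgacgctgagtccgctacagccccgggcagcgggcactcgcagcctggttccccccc
Zbtb18: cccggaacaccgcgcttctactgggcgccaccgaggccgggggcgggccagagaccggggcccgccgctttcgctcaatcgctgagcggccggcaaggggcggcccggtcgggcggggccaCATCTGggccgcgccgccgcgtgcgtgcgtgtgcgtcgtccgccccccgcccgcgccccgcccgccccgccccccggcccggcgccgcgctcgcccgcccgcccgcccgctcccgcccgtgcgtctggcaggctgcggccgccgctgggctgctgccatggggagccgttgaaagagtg
Slc17a7 held 0 matches to the motifs searched and Zbtb18 held 1. CATCTG on either strand stood in 9.09% of 88 promoters of genes called higher, in 11.6% of 86 of genes called lower and in 11.6% of 3796 of all genes above the floor. The palindromic cyclic AMP response element TGACGTCA stood in 3.41%, 3.49% and 3.5% of the same sets, and the EGR site GCGTGGGCG on either strand in 0, 1.16% and 1.08%. These motifs do not overlap one another in letters, and a match is a description of the window only.

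Hippocampal genes were mostly higher in miR-7 deficient. In this list 10 of 20 measured genes were above a floor. Of these 4 were 2-fold or more higher and 0 lower, beside 2.22% and 2.37% of all genes, with a median of 0.91 over 8 members. Without the 2 members that earlier results had named, 2 were called higher, with a median of 0.66 over 6. C1ql2, a synaptic organizer of dentate granule cells, read 3293 in miR-7 deficient against 664 in wild type, at least 4.55-fold. Pcp4, a calmodulin regulator, read 5072 against 2463, and Wfs1, a reticulum protein of hippocampal field CA1, 1286 against 746 (log2 0.78). Nptx1 and Hpca, given above, are the other members called higher.

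Striatal genes were divided. Of 25 measured genes 11 were above a floor. Of these 3 were higher by 2-fold or more and 0 lower, beside 2.22% and 2.37% of all genes. The median was 0.77 over the 8 members that passed the mean filter but -0.48 over the 5 above both floors. Without the member that earlier results had named, 2 were called higher, with a median of 0.58 over 7. Ppp1r1b encodes DARPP-32, the dopamine-regulated phosphatase inhibitor of striatal projection neurons, and read 2425 in miR-7 deficient against 467 in wild type, below the floor (at least 3.35-fold). Pde10a, the phosphodiesterase of the same neurons, read 1838 against 410.2, again with the wild type value below the floor. Penk, the precursor of enkephalins, read 10376 against 3329 (log2 1.64). Tac1, the precursor of substance P, ran the other way at 737 against 1429.6 (log2 -0.96), as did Rasgrp2, an exchange factor for RAP proteins, at 2285 against 3397. The median of -0.48 is the value of Arpp19, a phosphatase inhibitor whose rows disagreed in direction. Another row of Arpp19 above both floors read 1615 against 852 (log2 0.92). Penk and Tac1, which mark different striatal projection neurons, thus lay on opposite sides of 0.

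The measurable members of the hypothalamic and monoamine list were lower in miR-7 deficient, but many of its defining genes were below both floors. Of 33 measured members 9 were above a floor, and 5 were 2-fold or more lower and 0 higher, against 2.37% of all genes called lower. All 9 members that passed the mean filter were below 0, with a median of -1.26, and over all 33 with no filter 22 were below 0, with a median of -0.79. Without Resp18, which earlier results had named, the other 8 had a median of -1.12 with 4 called lower. Resp18, a secretory protein of neuroendocrine cells, read 836 in miR-7 deficient against 2797 in wild type (log2 -1.74). Ddc, the decarboxylase that makes dopamine and serotonin, read 724 against 1901 (log2 -1.39). Peg3, an imprinted zinc finger gene, read 1093 against 2673, and Zcchc12 768 against 1841. Tmem130, a membrane protein, read 5882 against 16494 and was well above both floors. Its other row differed less, at 3818 against 5556 (log2 -0.54). Hap1, the huntingtin-associated protein, at 1407 against 2766, and Nnat, neuronatin, at 7237 against 12500.3, differed by less than 2-fold. The lower values on the miR-7 deficient array for Resp18, Ddc and Zcchc12 lay close to its floor of 610. The hypothalamic peptide genes Avp, Oxt, Hcrt, Pomc and Trh and the monoamine genes Th, Tph2, Slc6a3 and Slc6a4 were below both floors, so their order is unknown. Tmem130, Peg3, Hap1, Nnat, Ahi1 and Zcchc12, which are made in other neurons as well, are 6 of the 9 members behind the median.

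Inhibitory neuron genes were divided. Of 23 measured members of the list 13 were above a floor. Of these 1 was 2-fold higher and 1 lower, beside 2.22% and 2.37% of all genes. The median over the 10 that passed the mean filter was -0.68, while that over all 23 was -0.02. Without the member that earlier results had named, 1 was called higher and 0 lower, with a median of -0.53 over 9. Gad2, an enzyme of GABA synthesis, read 643 in miR-7 deficient against 1981 in wild type (log2 -1.62). Gad1, the other such enzyme, read 1292 against 2332 (log2 -0.85). The peptide Sst read 2861 against 5153 and the calcium buffers Pvalb and Calb2, which mark interneurons, 3491 against 6202 and 11462 against 16516. These 3 markers were lower by less than 2-fold, while the peptide Npy differed by 0.15. Penk is the member called higher.

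Of 51 measured hindbrain and spinal cord genes 17 were above a floor, and 2 were called higher and 4 lower, beside 2.22% and 2.37% of all genes. The median was -0.54 over 15 members. Without the 3 members that earlier results had named, 2 were called higher and 1 lower, with a median of -0.48 over 12. Vamp1, synaptobrevin 1, the vesicle SNARE of brainstem and spinal motor circuits, had the lowest difference measured on both arrays among the genes of the naming rule. It read 1554 in miR-7 deficient against 8224 in wild type (log2 -2.40), whereas its relative Vamp2 read 18437 against 16344 (log2 0.17). Ache, acetylcholinesterase, read 1598 against 3284, and Ank1, an ankyrin of the membrane skeleton, was at least 2.7-fold lower. Resp18, described above, is the other member called lower. The 2 members called higher, Thy1 (1.06), an adhesion protein of projection neurons, and Uchl1 (1.07), a deubiquitinase of neurons, are expressed well beyond the hindbrain. Cerebellar genes, with Aldoc called lower, had a median of -0.19 over 12 members, -0.45 over the 11 above both floors and -0.69 with the rows of each gene averaged. Thalamic and midbrain genes had a median of -0.12 over 6, with 0 called.

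**Figure D2:**
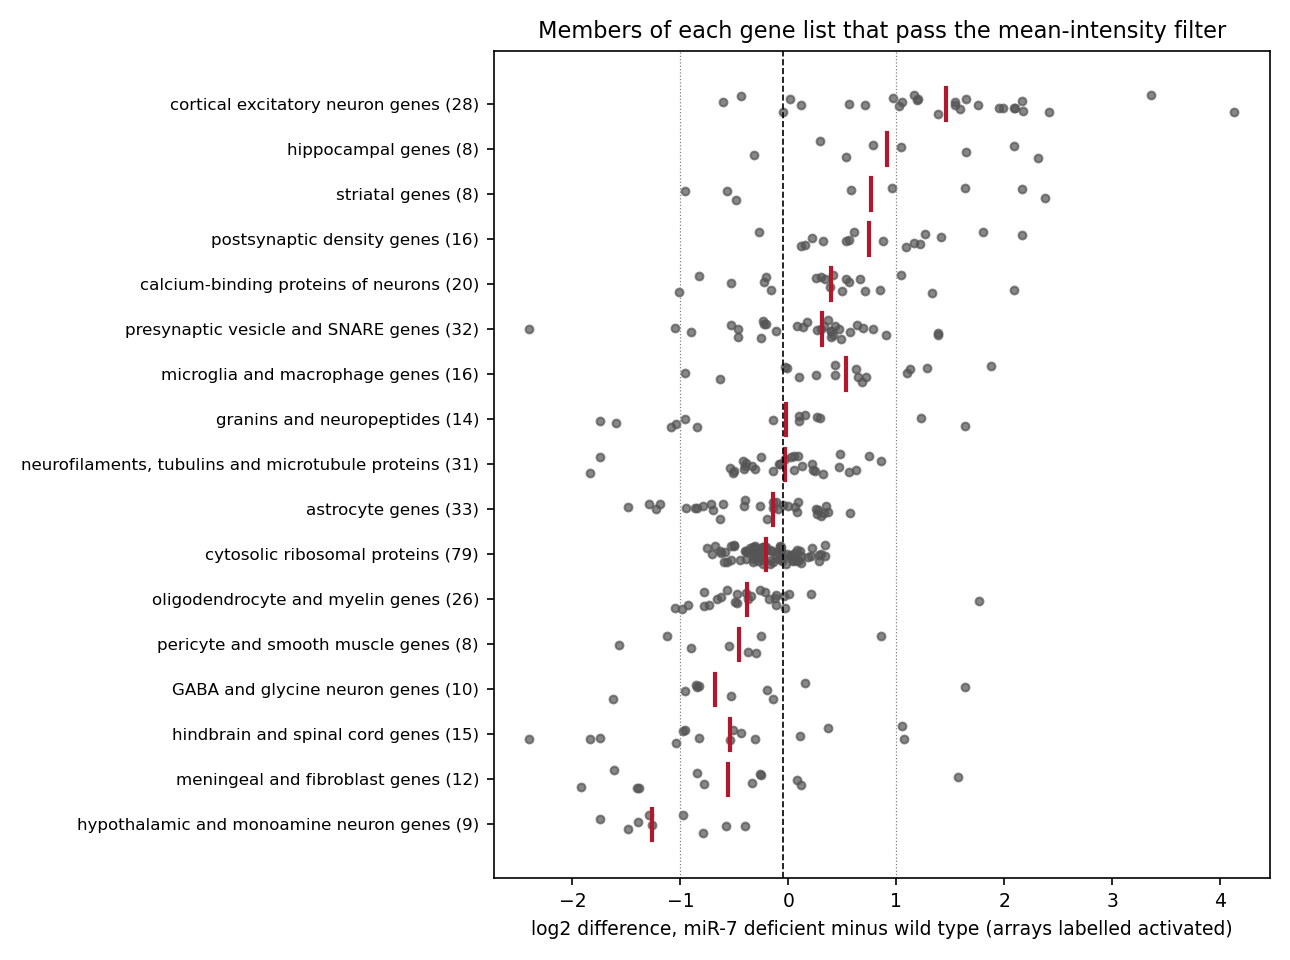
Log2 difference, miR-7 deficient minus wild type, of each member that passed the mean-intensity filter, by gene list, with the number of members in parentheses. Red bars are list medians, the dashed line is the median of all 4889 genes (-0.05) and the dotted lines mark a 2-fold difference. The cortical list, with a median of 1.46, lies to the right of the dashed line and the hypothalamic list, with a median of -1.26, to the left.

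**Figure D3:**
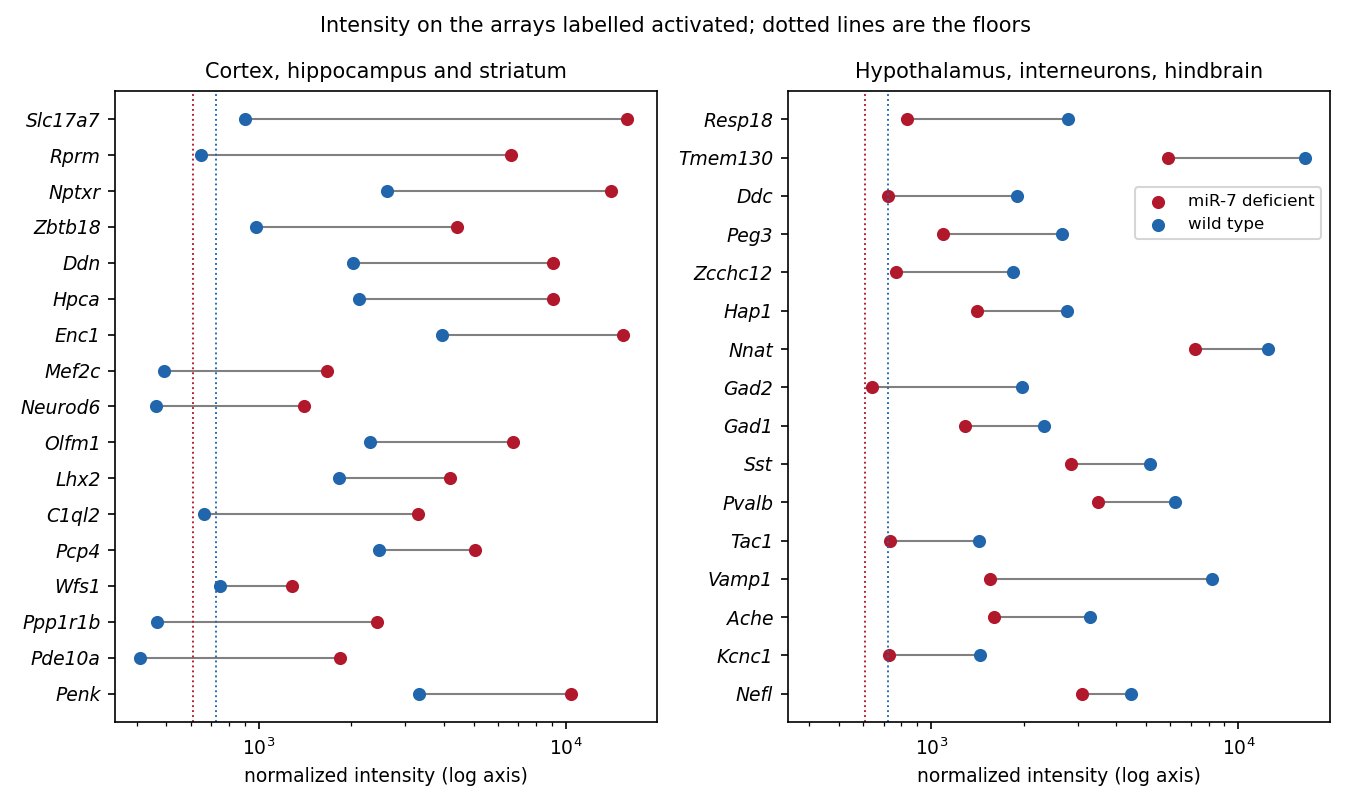
Normalized intensity (log axis) of list members on the miR-7 deficient array (red) and the wild type array (blue), with dotted lines at the 2 floors, for genes chosen after their values were seen. The left panel has miR-7 deficient above wild type for all genes shown, Slc17a7 at 15853 against 902, and the right panel has wild type above miR-7 deficient, Vamp1 at 1554 against 8224. Members that ran the other way, such as Cux1 and Rasgrp2 for the left panel and Thy1 and Uchl1 for the right, are not shown. Tac1, given with the striatal genes, is in the right panel.

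Of 39 measured postsynaptic density genes 22 were above a floor. Of these 6 were 2-fold or more higher and 0 lower, beside 2.22% and 2.37% of all genes. Of the 16 that passed the mean filter 15 were above 0, with a median of 0.75 (0.32 over all 39). Without the member that earlier results had named, 5 were called higher, with a median of 0.61 over 15. Ppp1r9b, the scaffold spinophilin that holds protein phosphatase 1 in dendritic spines, read 21705 in miR-7 deficient against 8136 in wild type (log2 1.42). Dlgap1, a scaffold bound to PSD-95, read 3575 against 1484 and Iqsec2, an exchange factor for ARF proteins, 3134 against 1345. Baiap2, which bends spine membranes, read 2216 against 987. Psd, an exchange factor for ARF6, was at least 2.93-fold higher with its wild type value of 606 below the floor, and Ddn is the other member called higher. Dlgap4, a relative of Dlgap1, was the member below 0 (-0.27).

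Presynaptic genes had a median of 0.31 over 32 of 42 members described. Of 33 above a floor 2 were called lower and 0 higher, beside 2.37% and 2.22% of all genes. The abundant vesicle fusion genes Nsf (16884 in miR-7 deficient against 14063 in wild type) and Snap25 (10339 against 7834) differed by less than 0.5 on the log2 scale. Dnm1, the dynamin that releases endocytic vesicles, read 31834 against 18526 (log2 0.78). The members called lower were Vamp1, given above, and Syt11 (-1.05), whose rows disagreed in direction. Glutamate receptor genes had a median of 0.30 over 9 members, and 1 of 11 above a floor was called higher, beside 2.22% of all genes. It was Cnih2, an AMPA receptor auxiliary protein, at 2447 against 1065. Gria4, an AMPA receptor subunit, was lower by less than 2-fold at 1504 against 2598.

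Ion channel and calcium signalling genes were mostly higher by less than 2-fold. Voltage-gated channel genes had a median of 0.30 over 14 members, and 1 of 21 above a floor was called, beside 4.59% of all genes. It was Cacnb3, a calcium channel subunit, at 1901 in miR-7 deficient against 693 in wild type, below the floor. Kcna1 read 284, below the floor, against 1169, and Kcnc1, a channel of fast-spiking neurons, 731 against 1441. Outside that list, Kcnma1, the pore of the BK potassium channel, read 4127 against 1044 (log2 1.98) and Kcnmb4, its neuronal accessory subunit, 5727 against 1620.0 (log2 1.82). Calcium-binding genes had a median of 0.40 over 20 members, with 3 called higher and 1 lower of the 22 above a floor, beside 4.59% of all genes called. Without the member that earlier results had named, 2 were called higher and 1 lower, with a median of 0.38 over 19. Ppp3ca, the catalytic subunit of calcineurin, read 15784 against 6267 (log2 1.33), and Rcan2, a calcineurin inhibitor, read 945 against 1902 (log2 -1.01). Calcineurin's subunit and its inhibitor lay on opposite sides of 0.

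Neurosecretory genes fell on both sides. Of 29 measured granin and neuropeptide genes 14 were above a floor. Of these 2 were called higher and 4 lower, beside 2.22% and 2.37% of all genes, and the median over 14 was -0.02. Without the 2 members that earlier results had named, 2 were called higher and 2 lower, with a median of 0.10 over 12. Scg2, secretogranin II, read 886 in miR-7 deficient against 2674 in wild type, Chga, chromogranin A, 2441 against 5024, and Pcsk1n, a prohormone convertase inhibitor, 2850.3 against 6050.1. Resp18 is the other member called lower. Pcsk2, a prohormone convertase, was higher at 2174 against 927 (log2 1.23), as was Penk. Chgb (0.30) and Cpe (-0.14) differed by less than 2-fold.

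Of the genes published as miR-7 targets, 43 measured ones are described, and 17 of them were above a floor. The 14 that passed the mean filter had a median of 0.32, with 12 above 0, beside -0.05 and 45.6% over all genes, and the median over the 43 was 0.17, with 29 above 0. All 14 differed by less than 2-fold, which says nothing of published targets outside the 43. Ywhaz, a 14-3-3 protein, read 22059 in miR-7 deficient against 11897 in wild type (log2 0.89). Park7, a redox sensor linked to Parkinson's disease, differed by 0.35 and Keap1, the repressor of NRF2, by 0.24. Pak1, a kinase of the actin cytoskeleton, read 1320.2 against 2397 (log2 -0.86) and Set, a histone chaperone, differed by -0.40. Cplx1, Snap25 and Vamp2 belong to both the targets and the presynaptic list, whose median was 0.31, and the part of that overlap in the targets' median was not tested. The cortical marker sum of 18974 in miR-7 deficient against 1986 in wild type moved with these values, and its part in them was not tested either. That sum is mostly Slc17a7 in miR-7 deficient, at 15853 against 902.

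**Figure D4:**
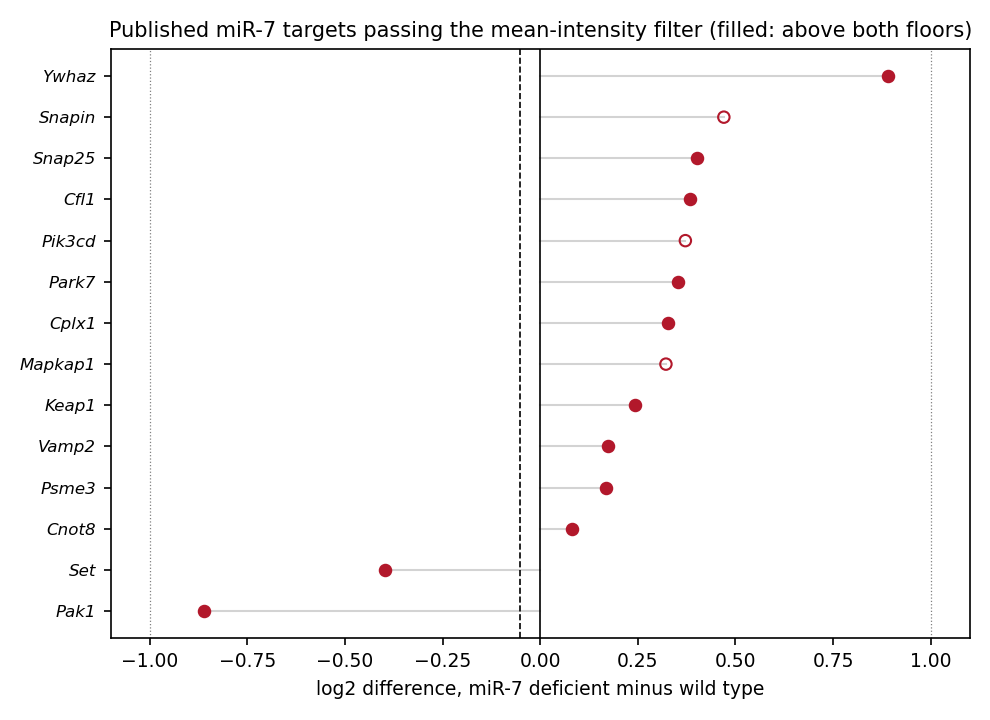
Log2 difference, miR-7 deficient minus wild type, of the 14 published miR-7 targets described that passed the mean-intensity filter, with filled points for genes above both floors. The dashed line is the median of all genes (-0.05) and the dotted lines mark a 2-fold difference. Of the points, 12 are above 0, Ywhaz is highest at 0.89 and Pak1 lowest at -0.86.

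Of 18 members described of the silencing machinery and genes tied to miR-7, 8 were above a floor and 0 were called. The median was -0.10 over 7. Tnrc6a, a GW182 scaffold of the silencing complex, read 2309 in miR-7 deficient against 4526 in wild type (log2 -0.97). Drosha read 811 against 634, with the wild type value below the floor, and Tarbp2 788 against 844.

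Prion and amyloid genes are listed with the genes linked to neurodegeneration, among which Prnp and Uchl1 were called higher. Prnp, the prion protein of neurons, read 18400.4 in miR-7 deficient against 2942 in wild type (log2 2.64), and its other row gave 2.94. App, the amyloid precursor, read 22098 against 21470.4, and Mapt, tau, 7733 against 7579. The median of 0.05 over 24 members was near that of all genes.

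Oligodendrocyte genes were mostly lower by less than 2-fold, and some astrocyte genes by more. Of 27 oligodendrocyte and myelin genes above a floor 0 were 2-fold higher and 1 was lower, beside 2.22% and 2.37% of all genes. Of the 26 that passed the mean filter 23 were below 0, with a median of -0.38. Mbp, myelin basic protein, read 17055 in miR-7 deficient against 23744 in wild type, and Mobp, another protein of the myelin sheath, 13982 against 16745. Ppp1r14a, a phosphatase inhibitor, was the member called lower at 689 against 1428, and Bcas1, which marks myelin-forming cells, read 4506 against 8946. Of 34 astrocyte genes above a floor 4 were called lower and 0 higher, beside 2.37% of all genes called lower, with a median of -0.14 over 33. Aldoc, aldolase C, read 3633 against 8864 (log2 -1.29), Plpp3, a lipid phosphatase, 2216 against 5183 and Gjb6, a gap junction protein, 615 against 1401. Itih3, a hyaluronan-binding chain, was at least 2.26-fold lower. Slc1a2, the main glutamate transporter of astrocytes, ran the other way at 3181 against 2142, and Gfap differed by 0.27. Thus the astrocyte members called lower were not joined by these 2 markers.

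Of 34 measured microglia and macrophage genes 17 were above a floor. Of these 1 was called higher and 0 lower, beside 2.22% and 2.37% of all genes. Of the 16 that passed the mean filter 12 were above 0, with a median of 0.53. It was 0.10 over the 5 that passed with the floor at the 99th percentile. Without the 3 members that earlier results had named, 0 were called, with a median of 0.43 over 13. Sirpa, the receptor of the signal CD47, read 1898 in miR-7 deficient against 780.2 in wild type. Trem2, a lipid receptor of microglia, read 1338 against 364, Tyrobp, its signalling adaptor, 996 against 465 and Csf1r 951 against 591, with the wild type values below the floor. Aif1 ran the other way at 487 against 943, with the miR-7 deficient value below the floor. The microglia markers Cx3cr1, P2ry12 and Tmem119 were below both floors, at 388 against 246 for P2ry12.

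Genes of the brain's coverings were mostly lower in miR-7 deficient. Of 28 measured meningeal and fibroblast genes 15 were above a floor. Of these 4 were called lower and 1 higher, beside 2.37% and 2.22% of all genes. The median was -0.56 over 12, of which 9 were below 0. Without the member that earlier results had named, 3 were called lower and 1 higher, with a median of -0.34 over 11. Ptgds, prostaglandin D synthase, read 4833 in miR-7 deficient against 18244 in wild type (log2 -1.92). Aldh1a2, which makes retinoic acid, read 1924 against 5023 (log2 -1.38). Mgp, an inhibitor of calcification, was at least 2.52-fold lower and Nupr1, a stress-induced chromatin protein, at least 2.59-fold. Col1a1, a collagen chain, was the member called higher at 1694 against 568, the wild type value being below the floor. Col1a2, its partner chain, read 900.2 against 1071. Of 17 measured pericyte and smooth muscle genes 8 were above a floor. Of these 2 were called lower and 0 higher, beside 2.37% and 2.22% of all genes. The members called lower were Vtn, vitronectin, at 1139 against 3388 and Myl9, a myosin light chain, at 1429 against 3109.9. The median was -0.46 over 8, and -0.37 over 7 without the member that earlier results had named. Of 29 measured endothelial genes 10 were above a floor and 0 were called, with a median of -0.26 over 10.

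The choroid plexus list rested on 1 gene. Ttr, the thyroid hormone carrier, read 21858 in miR-7 deficient against 2541 in wild type (log2 3.10), while its other row was below both floors at 314 against 439. Folr1, Kl and Clic6, other markers of the plexus, were below both floors, and Enpp2, shared with oligodendrocytes, differed by -0.11. Haemoglobin genes, which stand for blood, were lower. Hbb-b1 read 1258 against 2680.4 (log2 -1.09), and Hba-a1 and Hba-a2, near-identical copies whose signals may be shared, were at least 2.22-fold and at least 2.28-fold lower.

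Few immune genes were above a floor. Of 20 measured T cell receptor and coreceptor genes 4 were above a floor and 1 was called higher, beside 2.22% of all genes. It was Tcf7, a transcription factor of T cells, at 3643 in miR-7 deficient against 1039 in wild type. Its 3 rows disagreed, since another row above both floors read 644 against 1148. Of 20 activation genes 1 was above a floor, Ctla4, an inhibitory receptor, at 1353 against 1311. Of 20 cell cycle genes 2 were, Pcna, the replication clamp, at 1292 against 1045 and Ccnd2, a cyclin also made by neurons, at 4400.2 against 2664. Of 30 measured interferon-stimulated genes 6 were above a floor and 0 were called, with a median of -0.42 over 5. Among them H2-K1, a class I heavy chain, read 2214 against 3349.

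Genes that every cell uses differed little. Cytosolic ribosomal protein genes had a median of -0.20 over 79 members, 58 of them below 0. Of 85 measured 80 were above a floor and 0 were called, and Rps27a was lowest at 5164 against 8706. Proteasome subunits had a median of -0.19 over 27 and ATP synthase subunits -0.20 over 17, with 0 called in both. Complexes II and III of the respiratory chain had a median of -0.29 over 12, with 11 below 0 and 1 called lower, while complexes I and IV lay at -0.06 and 0.03. Subunits of the vacuolar proton pump, which acidifies synaptic vesicles and lysosomes, had a median of 0.18 over 17, with 14 above 0. Glycolysis genes (-0.03 over 17) and translation factors (0.01 over 36) were near the median of all genes. Of 18 glycolysis genes above a floor 1 was called lower, Aldoc. Neurofilaments, tubulins and their partners, a list that holds the neuronal marker Nefl, also had a median near that of all genes (-0.03 over 31). Of 33 above a floor 2 were called lower, among them Ank1, and 0 higher, beside 2.37% and 2.22% of all genes. Prdx5, a peroxiredoxin of mitochondria, stood apart from the other antioxidant genes at 3287 in miR-7 deficient against 11716 in wild type (log2 -1.83).

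Genes of the naming rule that belong to none of these groups included further wide differences. Mmp17, a membrane-bound metalloproteinase, read 8492 in miR-7 deficient against 1573 in wild type (log2 2.43). Prkce, protein kinase C epsilon, read 6892 against 1973, Chn1, the RAC-regulating chimaerin of neurons, 17335 against 4982, and Phactr1, a regulator of protein phosphatase 1 and actin, 8659.9 against 3306. Chrdl1, an astrocyte-secreted BMP antagonist, was at least 7.36-fold higher, and Wasf1 and Brk1, 2 subunits of the actin-branching WAVE complex, at least 3.4-fold and 3.25-fold. All 3 had wild type values below the floor. Lower were Fabp5, a fatty acid carrier, at 807 against 3256, Ckmt1, mitochondrial creatine kinase, at 3820.2 against 9919.8, and Gls2, a glutaminase, at 765 against 1921. Gsk3b, a kinase of WNT and insulin signalling, read 822 against 1859, and Fzd1, a WNT receptor, was at least 2.91-fold lower. Another row of Gsk3b above both floors differed less, at 845 against 1199.

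Few of these genes could be followed in the naive pair, where 93 of the 261 were above a floor. In that pair 70 of 3451 genes were 2-fold higher (2.03%) and 27 lower (0.782%), 2.81% in all. The genes apart in both pairs were 3 of those 93, a count near the 2.81% of all genes apart in the naive pair. They are 1.15% of the 261 and 3.09% of the 97, beside 4.59% of all genes apart on the arrays labelled activated. All 3 had the same sign in both. Ppp1r9b read 2816 on the miR-7 deficient naive array against 841 on the wild type naive array, beside 21705 against 8136 on the arrays labelled activated. Sox5, a transcription factor of deep cortical layers and other tissues, read 2140.3 against 683 naive and 2521 against 1182 labelled activated. Aldh1a2 read 618 against 4038 naive and 1924 against 5023 labelled activated. Ppp1r9b and Sox5 were thus higher, and Aldh1a2 lower, in miR-7 deficient in both pairs, with 1 naive value of each below its floor. The pairs share no array.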

How the data were processed

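RNA of 4 samples was hybridised with Cy3 to NimbleGen arrays, 1 per sample, per the labels' protocols. The authors normalized the intensity values with RMA, per the submitters' processing notes, and deposited them on a linear scale, although a file header calls them log2 transformed. The authors' deposited tables also hold a fold change, a ratio of 2 intensities, which was not used.

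Intensities were taken to log2. Of 35411 rows, 33663 name a gene and 31529 matched a RefSeq gene table (GRCm38.p6); of several rows for 1 of the 20735 genes, the most intense over the 4 arrays was used. Coordinates of array rows are left out, since no source here names the build of the design. The floor is the 95th percentile of 664 chemoreceptor rows. Differences are miR-7 deficient minus wild type, and single arrays allow no test. The number of arrays limits the precision. Genes are named by rule: the 40 highest and 40 lowest differences measured on both arrays, the 15 largest bounds in each direction, and members of 57 gene lists that were 2-fold apart, extreme, most intense or defining. Some genes that meet the rule or belong to a list are not reported here and were left out of the list values. The comparison, lists and rule were chosen with earlier results of these data known. The counting was checked on simulated arrays, with differences beyond the 2-fold cutoff set only in genes well above both floors. That check did not cover bounds or differences near the cutoff. Alternatives were 3 scalings, 3 floors and 2 ways to represent a gene. Python 3.11.15, numpy 2.4.6, pandas 2.3.3, statsmodels 0.14.6 and matplotlib 3.10.9 were used.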

Additional observations from a re-analysis of the deposited data

How the results depend on the processing

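With 1 array per group there is no replicate error, and genes near a floor are known only as bounds. No paired analysis was possible because each group has 1 array and no test was run. Of the genes apart, 48.3% were higher in miR-7 deficient in the main setting and 60.5% after centring on the median difference (155 higher, 101 lower), 56.4% with a lowess trend removed and 39.5% with the rows of each gene averaged (62 higher, 95 lower). Without a floor 1394 genes were higher and 1290 lower. A floor at the 99th percentile gave 57 and 47, and one at the 75th percentile 452 and 462. Of the list medians 13 moved. They were, without a floor, -0.021 for GABA and glycine neuron genes, -0.79 for hypothalamic and monoamine genes and 0.32 for postsynaptic genes. At the 99th percentile they were 1.97 for cortical genes, 1.19 for postsynaptic genes and 0.10 for microglia genes, over fewer members, and at the 75th percentile -0.17 for GABA and glycine genes, which lay at -0.275 with rows averaged. Granins and neuropeptides moved to -0.49 at the 99th percentile and with rows averaged, cerebellar genes to -0.69 and 14-3-3 proteins to 0.30 with rows averaged, and immediate early genes to 0.21 with the row chosen over the pair. The causes of these shifts were not tested. The median of all genes passing the filter was -0.05 in the main setting and 0.04 after centring. The medians of the cortical list (1.17 to 1.97) and of the hypothalamic list (-1.29 to -0.79) kept their sign in all 8 alternatives. Of 108 named genes, 39 were 2-fold apart in every setting.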

Other observations

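The groups of spine actin regulators, WAVE subunits, RNA-binding proteins, imprinted genes and BEX-related genes were drawn up after the values had been seen, so their counts describe these 2 arrays only. Actin regulators of dendritic spines were mostly higher in miR-7 deficient, and 18 of 22 measured genes were above a floor. Of these 9 were 2-fold or more higher and 0 lower, beside 2.22% and 2.37% of all genes. Of the 15 that passed the mean-intensity filter 14 were above 0, with a median of 1.21. Dbn1, the spine actin protein drebrin, read 2389 in miR-7 deficient against 660.2 in wild type, which lies below the floor, and Fscn1, the actin-bundling protein fascin, read 8041 against 3243. Pfn2, the neuronal profilin, read 8133 against 3516. Limk1, a kinase of cofilin, lay on the other side at 382 against 861, with the miR-7 deficient value below the floor. Arf6, a GTPase of membrane recycling, lay there too, at 679 against 1262. In the WAVE complex 5 of 11 measured subunits were above a floor. Of these 2, Wasf1 and Brk1, were called higher, while Cyfip1 (-0.14) and Cyfip2 (0.50) differed by less than 2-fold.

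Of 18 measured genes of neuronal RNA-binding proteins 13 were above a floor. Of these 5 were called higher and 0 lower, beside 2.22% and 2.37% of all genes, with a median of 0.58 over 13. Celf2, a splicing regulator, read 5407 in miR-7 deficient against 1732 in wild type, Khdrbs3, another, 4369 against 1468, and Rbfox1 6672 against 3125. Of the ELAVL genes, which stabilize messengers in neurons, Elavl2 differed by -0.10 and Elavl3 by 0.07. Imprinted genes ran the other way, with 14 of 23 measured ones above a floor. Of these 4 were called lower and 0 higher, beside 2.37% and 2.22% of all genes, with a median of -0.39 over 11. Nap1l5 read 1659.7 against 3781 and Impact, a translation regulator, 616 against 1307, and Peg3 and Ddc are the other members called lower. The related BEX, TCEAL, GPRASP and ARMCX genes had 13 of 20 above a floor. Of these 3 were called lower and 0 higher, beside the same shares of all genes, with a median of -0.42 over 12. Bex1 read 4214 against 10805 and Tceal1 2419.9 against 6747, whereas Bex2 differed by 0.26. The other row of Bex1, also above both floors, differed little at 3888 against 4258 (log2 -0.13).

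Rows with no gene name gave 300 above a floor, of which 4 were 2-fold higher and 10 were 2-fold lower in miR-7 deficient (4.67%).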
